A study of Mus musculus with 4 samples.

Results

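The genes followed here write, read or remove DNA methylation: the methyltransferase family genes Dnmt1, Dnmt3a, Dnmt3b and Dnmt3l, the reader genes Uhrf1, Uhrf2 and Mbd3, and the dioxygenase genes Tet1, Tet2 and Tet3. They were chosen by name, and all 10 were among the 40213 gene symbols of the deposited files. The libraries were made from RAW264.7, an established mouse macrophage cell line. Cells were cultured for 48 h with a hydrogel labelled Gel (n = 2 libraries) or with the gel labelled CuNZ@Gel (n = 2 libraries). The labels do not spell out CuNZ, though the series title speaks of a nanozyme, and the treatment text of all libraries mentions only CuNZ@Gel, so the Gel group is known from the sample titles alone. No library without gel was analysed here. Whether replicates came from separate cultures is not said in the labels, so each p-value covers only the variation among these libraries, possibly technical.

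DNA methylation is set on cytosines followed by guanine (CpG sites). DNMT3A and DNMT3B place new marks. DNMT3L has no catalytic activity of its own and acts as their cofactor, mainly in germ cells and early embryos. After replication UHRF1 binds hemimethylated CpG sites and brings DNMT1, which copies the pattern to the new strand. The TET enzymes oxidise the methyl group, using iron and alpha-ketoglutarate, and so start its removal. In macrophages, TET2 and DNMT3A are known for restraining inflammatory genes, and the series title names epigenetic control of inflammation as its subject. The data below are RNA levels, and no methylation was measured.

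Upstream sequence is shown for the member genes that rose most, Dnmt3l and Uhrf2, because their start regions differ in CpG content. The sequences are RefSeq's for build GRCm38.p6 and are not in the coordinates of the deposited data, which used GRCm39. Each is the 250 bases before an annotated transcript start, 5′ to 3′ on the gene's strand, which is plus for both genes, with CpG dinucleotides in capitals. All 10 genes had at least 1 such window, 17 in all. Dnmt3l has 3 annotated starts. The windows of the 2 downstream starts, at chr10:78049592-78049841 and chr10:78055085-78055334, and the window of Uhrf2, at chr19:30030263-30030512, read as follows.
Dnmt3l, middle start: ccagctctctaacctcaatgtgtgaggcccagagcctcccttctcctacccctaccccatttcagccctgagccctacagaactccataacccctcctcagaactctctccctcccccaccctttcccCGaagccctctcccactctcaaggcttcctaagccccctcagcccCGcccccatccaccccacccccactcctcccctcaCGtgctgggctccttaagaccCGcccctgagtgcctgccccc
Dnmt3l, last start: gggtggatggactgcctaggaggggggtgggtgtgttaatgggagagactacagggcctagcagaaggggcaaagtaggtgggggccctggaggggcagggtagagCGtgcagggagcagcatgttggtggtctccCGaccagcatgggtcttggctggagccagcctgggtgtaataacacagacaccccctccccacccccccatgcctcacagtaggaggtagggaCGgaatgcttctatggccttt
Uhrf2: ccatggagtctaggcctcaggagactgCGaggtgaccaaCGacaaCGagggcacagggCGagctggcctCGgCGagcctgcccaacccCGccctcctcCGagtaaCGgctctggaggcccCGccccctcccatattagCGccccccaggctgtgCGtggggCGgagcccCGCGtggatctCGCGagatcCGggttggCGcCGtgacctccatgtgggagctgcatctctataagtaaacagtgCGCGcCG
These windows held 4, 3 and 23 CpG dinucleotides, and that of the first Dnmt3l start held 5. The median over 32851 windows of the same length was 6. At most as many CpG dinucleotides as in the 3 Dnmt3l windows were found in 49.6%, 44.4% and 37.8% of all windows, in the order of the starts. For Uhrf2 this share was 88.0%, and the window of Tet2 had 51 CpG dinucleotides, a count not exceeded in 99.95% of windows. The 3 Dnmt3a windows held 38, 40 and 15, and that of Dnmt3b held 21. The Dnmt1 windows held 2, 7 and 26, and those of Uhrf1 held 10 and 30. The lowest count of the 17 windows was thus in Dnmt1. Levels per gene do not show which start was used.

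Levels are given as scaled CPM, that is, CPM (reads scaled to a common library total) divided by 1 further factor per library, as computed back from the deposited log2 values. Libraries held 13718000 to 14881000 recovered reads, rounded. Of 11588 genes that reached 1 scaled CPM in 2 or more libraries, 7770 (67.1%) passed limma at an adjusted p under 0.05, 3737 (32.2%) raised and 4033 (34.8%) lowered in CuNZ@Gel. Raised genes were 48.1% of the calls, against 63.7% under scaling by total reads alone, where the median log2 change of all genes was higher by 0.18. The 8 macrophage markers were all detected, with a summed level of 5237 and 5414 scaled CPM in Gel and of 8681 and 8410 in CuNZ@Gel. Most of this difference came from Lyz2, at 3004 and 3155 in Gel and 6000 and 5776 in CuNZ@Gel. Itgam, Lyz2, Adgre1 and Ptprc were among the 5 that rose (log2 changes of 1.89, 0.94, 0.83 and 0.64). The 2 that fell, named after their values were seen, were Fcgr1 and Cd68 (-0.82 and -0.23), and Spi1 did not pass. Of 14 markers of fibroblasts, epithelium, lymphocytes, endothelium, granulocytes and progenitors, 4 were at 0 in all libraries, and the sum of the 14 was 0.435 and 1.09 scaled CPM in Gel and 2.96 and 2.41 in CuNZ@Gel. Pecam1, an adhesion molecule of endothelium also found on leukocytes, had 2 reads in Gel and 57 in CuNZ@Gel. It was the only one of these tested, and since it passed the filter only through CuNZ@Gel its call is a description. The part of these differences in the results below was not tested.

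Of the 10 genes, 9 were tested. In CuNZ@Gel the cofactor gene Dnmt3l, the maintenance methyltransferase gene Dnmt1, the reader gene Uhrf2 and the dioxygenase genes Tet2 and Tet3 rose. The de novo methyltransferase genes Dnmt3a and Dnmt3b and the reader genes Uhrf1 and Mbd3 fell. All 9 thus passed the test, against the 67.1% of all genes given above, and the groups did not overlap for any of the 9, against 83.2% of all tested genes. Dnmt3l passed the filter on low values only through CuNZ@Gel and Dnmt3b mainly through Gel, so these counts are a description. The calls of Mbd3, Tet2 and Tet3 were lost when each library was corrected for transcript length and GC content, as given with these genes. In bulk RNA, fewer cells that express a gene and less RNA per cell cannot be told apart.

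**Figure D1:**
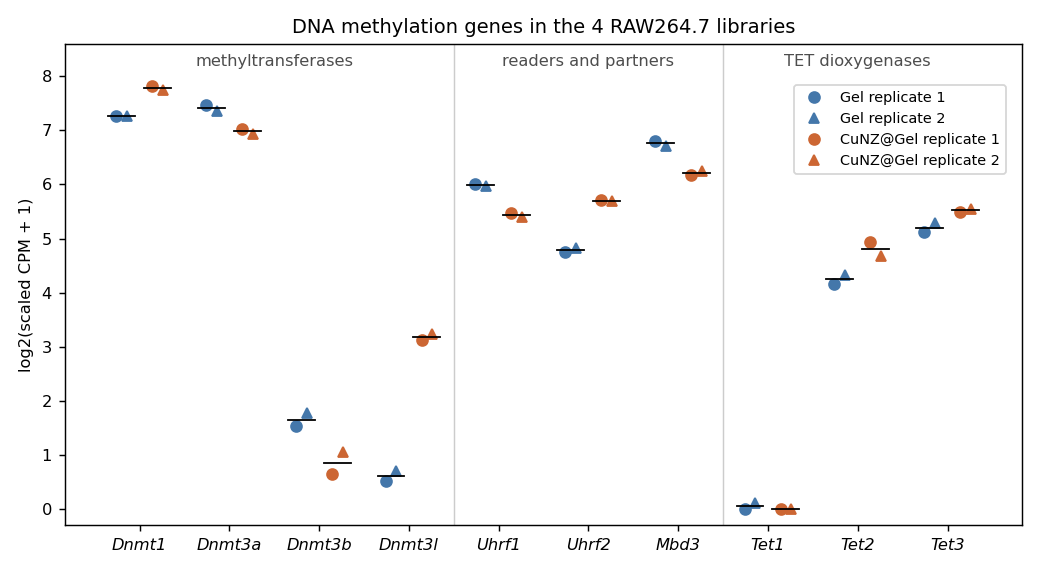
Level of each of the 10 genes in each library as log2(scaled CPM + 1), by role, with circles for replicate 1, triangles for replicate 2 and black bars for the group mean. Dnmt3l was near the floor in both Gel libraries and at 7.69 and 8.38 scaled CPM in CuNZ@Gel, and Tet1 lay at or near 0 in all 4.

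Dnmt3l had the largest change among the 9 genes. Its level was 0.435 and 0.622 scaled CPM in Gel replicates 1 and 2 and 7.69 and 8.38 in CuNZ@Gel replicates 1 and 2. These values rest on 6, 8, 122 and 132 reads. Both CuNZ@Gel libraries lay far above both Gel libraries. The ratio of the pooled reads, with libraries scaled as in the deposited values, was 15.3. Its 95% exact counting interval, from 8.94 to 28.4, covers counting error only. Changes at low levels are understated on the log2(scaled CPM + 1) scale, where that of Dnmt3l was 2.56 (95% interval 2.18 to 2.95; limma, adjusted p = 9.30e-11), and 99.3% of all tested genes changed by less in either direction. With a pseudocount of 0.1 in place of 1 it was 3.71. Since Dnmt3l passed the filter on low values only through CuNZ@Gel, its call and its rank are a description. In relation to its relatives, Dnmt3l made up 0.244% (Wilson 95% interval 0.112 to 0.531) and 0.376% (0.191 to 0.740) of the reads of Dnmt3a, Dnmt3b and Dnmt3l together in the Gel libraries. In the CuNZ@Gel libraries this share was 5.58% (4.69 to 6.62) and 6.40% (5.42 to 7.53). The share does not depend on how libraries were scaled.

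Because DNMT3L is known from germ cells and pluripotent cells, markers of these were read beside it. Of 10 pluripotency markers, 6 were at 0 in all 4 libraries, among them Pou5f1, Nanog and Sox2, and the 10 together had 1, 0, 2 and 6 reads in Gel 1, Gel 2, CuNZ@Gel 1 and CuNZ@Gel 2. Of 16 germline genes known to be silenced by promoter methylation, 9 were at 0 in all 4 libraries and only Piwil2 was tested. Piwil2, a PIWI protein of the germline small RNA pathway, rose by 1.38 on the log2 scale, with 1.68 ± 0.393 scaled CPM in Gel and 5.98 ± 1.06 in CuNZ@Gel (mean ± SD, n = 2 each). The other germline genes with a read in any library were below the filter. Among them Tex101, chosen after its values were seen, had 0 reads in Gel and 19 in CuNZ@Gel. The exons of Dnmt3l overlap those of Aire by 67 bases on the other strand, and Aire was at 0 in all libraries. The nearest protein-coding genes on its sides differed in opposite directions. Icosl, on the same strand, stood at 1.59 and 2.03 scaled CPM in Gel and at 4.22 and 3.24 in CuNZ@Gel. Pfkl, on the other strand, stood at 135 and 122 in Gel and at 98.5 and 110 in CuNZ@Gel.

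The catalytic de novo genes fell. Dnmt3a, expressed at 176 and 163 scaled CPM in Gel and at 130 and 121 in CuNZ@Gel, had a log2 change of -0.43 (95% interval -0.57 to -0.29; limma, adjusted p = 1.06e-05). The lower Gel library was above the higher CuNZ@Gel library. The size of this fall depended on the setting: it was -0.24 with total reads only and -0.80 after the correction for transcript length and GC content, and it passed the test in both. An antisense transcript, Dnmt3aos, overlaps 133 exon bases of Dnmt3a, or 0.799% of them, and stood at 2.39 and 2.34 scaled CPM in Gel and 0.504 and 0.635 in CuNZ@Gel. The use of strand in counting is not given in the sources used here, so reads of this stretch could belong to either.

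Dnmt3b was nearly silent in both groups. It had 1.88 and 2.41 scaled CPM in Gel and 0.567 and 1.08 in CuNZ@Gel, on 26, 31, 9 and 17 reads. Gel replicate 1 and CuNZ@Gel replicate 2 lay closest, and the groups did not overlap. The log2 change was -0.80 (95% interval -1.24 to -0.35; limma, adjusted p = 0.00246). Since Dnmt3b passed the filter on low values mainly through Gel, its call is a description. With libraries scaled as in the deposited values, the pooled reads were lower by a factor of 2.60 (exact counting interval 1.61 to 4.31). With a pseudocount of 0.1 the change was -1.33, and with limma-voom on the recovered reads it was -1.41. Dnmt3b lies beside its near copy Dnmt3c, for which no level was found under that symbol, so the reads of Dnmt3b are uncertain.

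The maintenance pair moved in opposite directions. Dnmt1, at 153 and 154 scaled CPM in Gel, reached 224 and 214 in CuNZ@Gel, a log2 change of 0.51 (95% interval 0.38 to 0.64; limma, adjusted p = 3.39e-07). Correcting for length and GC lowered it to 0.34. Uhrf1, which recruits DNMT1, fell from 63.6 and 61.9 to 43.5 and 41.4 scaled CPM, a log2 change of -0.55 (95% interval -0.72 to -0.39; limma, adjusted p = 3.98e-06), or -0.37 with total reads only. Within each library, free of scaling, Dnmt1 had 2.40 and 2.48 reads per Uhrf1 read in Gel and 5.15 and 5.18 in CuNZ@Gel. The ratio of Dnmt1 to Dnmt3a reads was 0.868 and 0.946 in Gel and 1.73 and 1.76 in CuNZ@Gel. Per length of the longest annotated transcript it was 1.43 and 1.56 in Gel and 2.85 and 2.91 in CuNZ@Gel. By this measure Dnmt1 was above Dnmt3a in both groups, whereas by reads Dnmt3a was above in both Gel libraries. Levels per gene do not show which transcript was expressed.

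Uhrf2, a close relative of Uhrf1 that also binds modified CpG sites but does not replace it in maintenance, rose. It stood at 25.9 and 27.3 scaled CPM in Gel and at 51.3 and 50.8 in CuNZ@Gel. The libraries of each group lay close together. The log2 change was 0.92 (95% interval 0.73 to 1.10; limma, adjusted p = 1.21e-08) and ranged from 0.86 to 1.10 over 15 alternatives. The ratio of Uhrf2 to Uhrf1 reads was 0.407 and 0.441 in Gel and 1.18 and 1.23 in CuNZ@Gel, so that Uhrf1 had more reads in both Gel libraries and Uhrf2 in both CuNZ@Gel libraries. The longest annotated transcripts of the genes are 3586 and 3536 bases, and per length the ratio was 0.412 and 0.448 in Gel and 1.20 and 1.25 in CuNZ@Gel.

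**Figure D2:**
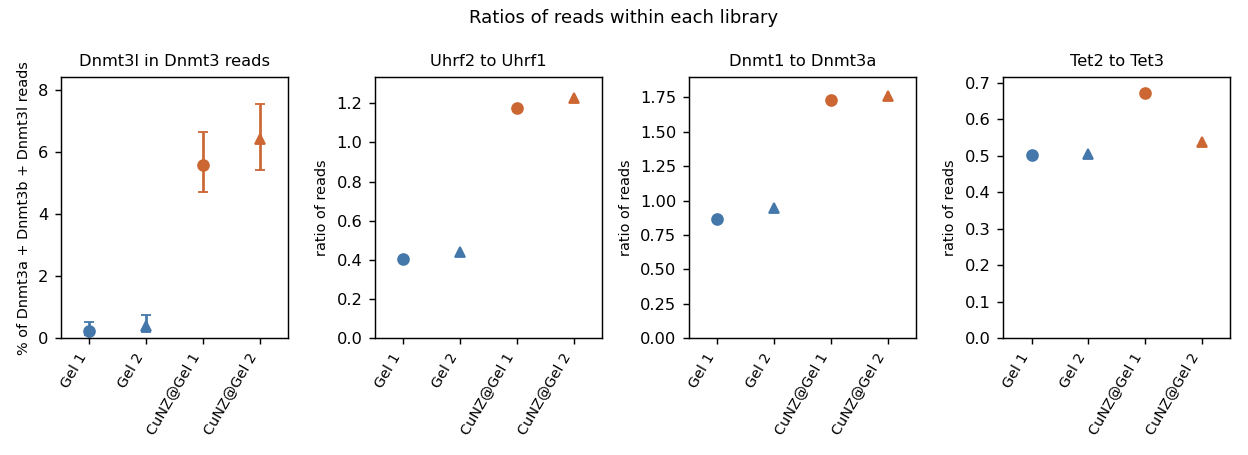
Ratios of reads within each of the 4 libraries, with Wilson 95% intervals for the Dnmt3l share (left panel, % of Dnmt3 family reads) and plain ratios in the other panels. The first 3 ratios were higher in both CuNZ@Gel libraries, whereas the Tet2 to Tet3 ratio of CuNZ@Gel replicate 2, at 0.538, lay near the Gel values of 0.501 and 0.505.

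Mbd3, a subunit of the NuRD remodelling and deacetylase complex whose methyl-binding domain hardly tells methylated from unmethylated CpG, had levels of 111 and 104 scaled CPM in Gel and of 71.4 and 74.6 in CuNZ@Gel. Its log2 change was -0.55 (95% interval -0.70 to -0.40; limma, adjusted p = 9.13e-07). With total reads only it was -0.36. The call was lost after the correction for length and GC content, with a change of -0.10 (limma, adjusted p = 0.136). The longest Mbd3 transcript has 1662 bases, and the 2525 tested genes under 2000 bases had a median log2 change of -0.32, with 53.1% of them lowered.

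Tet1 was not expressed at this depth: it had 1 read in Gel replicate 2 and 0 in the others. A count of 0 allows up to 3 reads by counting error alone, and in the libraries at 0 these equal 0.189 to 0.217 scaled CPM. Tet3 and Tet2 carried the TET family. Tet2 was at 16.9 and 19.1 scaled CPM in Gel and at 29.7 and 24.6 in CuNZ@Gel, a log2 change of 0.56 (95% interval 0.32 to 0.80; limma, adjusted p = 2.37e-04). Tet3 was at 33.8 and 37.9 in Gel and at 44.1 and 45.6 in CuNZ@Gel, a log2 change of 0.32 (95% interval 0.13 to 0.50; limma, adjusted p = 0.00387). For Tet2 the CuNZ@Gel libraries differed from each other by about as much as the lower one differed from the higher Gel library. Without Gel replicate 1 the change of Tet3 was 0.24 and did not pass (limma, adjusted p = 0.0782), and with total reads only it was 0.50.

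Neither TET call was kept after the correction for length and GC content, where Tet2 changed by 0.09 and Tet3 by -0.08 (limma, adjusted p = 0.434 and 0.412). Their longest transcripts have 9179 and 10904 bases. Among the 363 tested genes of at least 9000 bases the median log2 change was 0.44 and 67.5% were raised, against 32.2% of all tested genes. Dnmt3a, at 9685 bases, is in the same length class and fell. Of the class from 4000 to 6000 bases, with a median of 0.11, Dnmt1 rose and Dnmt3b fell. Of that from 2000 to 4000 bases, with a median of -0.10, Uhrf1 fell and Uhrf2 rose, and Dnmt3l (1822 bases), in the same class as Mbd3, rose. Beyond the correction, the part of transcript length or of GC content in these changes was not tested.

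**Figure D3:**
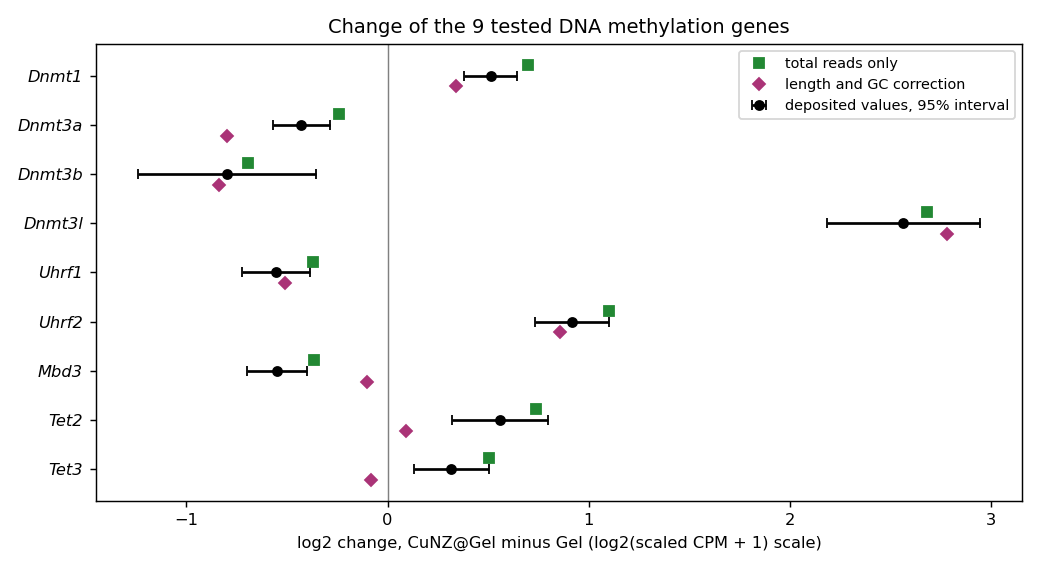
Log2 change (CuNZ@Gel minus Gel) of the 9 tested genes with its 95% interval (black), with libraries scaled by total reads only (green squares) and with length and GC content corrected (purple diamonds). Directions were the same at all 3 settings except for Tet3, and Tet2, Tet3 and Mbd3 lay near 0 after the correction.

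Per kilobase of the longest transcript, the order of levels in Gel was Mbd3 (64.6 scaled CPM per kilobase), Dnmt1 (26.1), Uhrf1 (17.5), Dnmt3a (17.5), Uhrf2 (7.52), Tet3 (3.29), Tet2 (1.97), Dnmt3b (0.497), Dnmt3l (0.290) and Tet1. Uhrf1 and Dnmt3a did not differ beyond their spread, since the values of Uhrf1 lay between those of Dnmt3a. In CuNZ@Gel the order was Mbd3 (43.9), Dnmt1 (37.3), Uhrf2 (14.4), Dnmt3a (13.0), Uhrf1 (11.8), Dnmt3l (4.41), Tet3 (4.12), Tet2 (2.96), Dnmt3b (0.190) and Tet1. There Uhrf2 had moved above Dnmt3a and Uhrf1, and Dnmt3l had moved from below Dnmt3b to beside Tet3, with 4.22 and 4.60 against 4.05 and 4.18 in the single libraries. Per length, Dnmt3l reached 0.315 and 0.366 of the Dnmt3a level in CuNZ@Gel, against 0.0131 and 0.0203 in Gel.

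Other genes of the pathway were read against the shares of all tested genes, 32.2% raised and 34.8% lowered. Of the 13 tested methyl-CpG and CXXC-domain proteins among 15 listed, 5 rose and 6 fell, with a median log2 change of 0.05 against -0.03 for all genes, so that both directions occurred here as among all genes. Mbd5, Kdm2a and Kdm2b rose (0.84, 0.47 and 0.43) and Mbd6 fell by 0.64. The 6 that fell include Cxxc5, named after its values were seen. It had 1.45 and 1.32 scaled CPM in Gel and 0.126 and 0.571 in CuNZ@Gel. Since Cxxc5 passed the filter only through Gel, its call is a description. KDM2A and KDM2B are histone demethylases that bind unmethylated CpG. Mbd2, whose protein is the methyl-binding alternative to MBD3 in NuRD, stood at 123 ± 2.49 and 127 ± 0.566 scaled CPM (SD, n = 2 per group) and did not pass (limma, adjusted p = 0.520). With total reads only 7 genes of this list rose and 3 fell. Without Gel replicate 2, 3 rose, and with no filter on low values 3 rose and 3 fell.

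Among 15 tested genes that recruit or assist the methyltransferases, of 16 listed, 7 rose and 6 fell (median 0.12), beside 67.1% of all tested genes called in either direction. Smchd1, a structural protein of the silent X chromosome, rose by 0.78, and Hells, the remodeler LSH that opens chromatin for methylation, by 0.65. Cdca7, the activator of HELLS, fell by 0.75, and Trim28, the corepressor that brings methylation to zinc finger targets, fell by 0.43. With total reads only 2 of these genes fell, and without CuNZ@Gel replicate 1, 3 fell. After the length and GC correction 4 rose. For the NuRD complex, 4 of 13 tested subunits rose and 5 fell (median -0.04), which is near the 32.2% and 34.8% of all tested genes. Its ATPase gene Chd4 rose by 0.33, whereas Cdk2ap1, Mta1 and the low Chd5 fell by 0.52, 0.43 and 1.35. Under total reads only, and also without Gel replicate 1, 3 NuRD genes fell.

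The demethylation list, with 16 tested of 18, had 4 genes raised and 8 lowered (median -0.36), beside 32.2% and 34.8% of all tested genes. The members with the smallest p included both cytosolic and mitochondrial NADP isocitrate dehydrogenases, which make the TET cosubstrate alpha-ketoglutarate, in opposite directions. Idh1 rose, with 149 ± 0.441 scaled CPM in Gel and 410 ± 10.7 in CuNZ@Gel, and Idh2 fell, with 178 ± 12.0 and 61.0 ± 0.456 (SD, n = 2 each). Ogt, the GlcNAc transferase that binds TET proteins, rose by 0.94, and Gadd45b, a stress protein linked to active demethylation, fell by 1.87. Of the DNA glycosylases in the list, named after their values were seen, Tdg, which excises oxidised methylcytosine, rose by 0.49. Neil1, Neil3 and Ung fell by 1.53, 1.10 and 0.94, and Smug1, with a change of 0.16, did not pass.

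Methyl donor genes rose in 4 and fell in 4 of 12 tested cases of 16 listed (median 0.09), near the 67.1% called among all tested genes, with 7 raised under total reads only. Mat2a, which makes the methyl donor S-adenosylmethionine, rose, with 128 ± 0.189 scaled CPM in Gel and 203 ± 3.20 in CuNZ@Gel (mean ± SD, n = 2 each). Ahcy, which clears the product inhibitor S-adenosylhomocysteine, fell by 0.84, and its relative Ahcyl2 rose by 0.86.

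S phase genes were read beside Dnmt1 and Uhrf1, which are known to be expressed most in S phase. Of 18 tested, 6 rose and 9 fell (median -0.21), beside 32.2% and 34.8% of all tested genes, with 5 lowered under total reads only. After the length and GC correction 4 of these genes rose and 11 fell. Among genes of replication licensing, Cdt1, Mcm5 and Mcm7 fell by 0.85, 0.64 and 0.50. Further ones were read with their values in view. Mcm2 and Mcm3 also fell (log2 changes of -0.34 and -0.25), Mcm6 did not pass, and Mcm4 and Cdc6 rose by 0.38 and 0.39. The cyclin gene Ccne2 rose by 1.54. The part of these differences in those of Dnmt1 and Uhrf1 was not tested. Imprinted transcripts, whose expression from 1 parental copy depends on DNA methylation, were mostly silent, with 5 of 20 found in the files passing the filter. Of these 5, 4 rose and none fell (median 0.99), beside 32.2% and 34.8% of all tested genes. Kcnq1ot1, a long antisense RNA, rose from 7.36 ± 1.27 to 29.2 ± 0.857 scaled CPM, and Igf2r, Impact and Airn rose by 1.07, 0.72 and 0.99 (SD, n = 2 per group). Airn runs antisense through Igf2r and passed the filter only through CuNZ@Gel. Since the use of strand in counting is not given, reads counted for antisense pairs could belong to either gene.

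**Figure D4:**
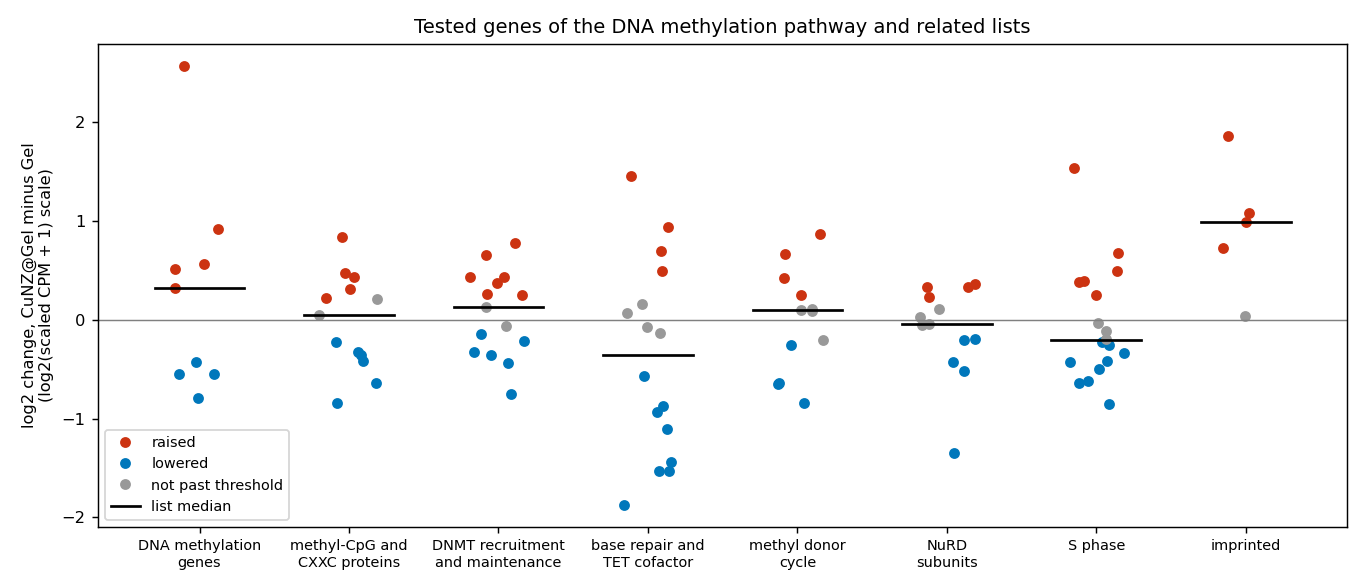
Log2 change (CuNZ@Gel minus Gel) of each tested gene in the DNA methylation genes and in 7 related lists, coloured by call, with black bars for the list medians. Each list but the imprinted transcripts held genes on both sides of 0, and Dnmt3l, at 2.56, was the highest point.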

How the data were processed

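RNA sequencing was done on 4 RAW264.7 libraries, 2 labelled Gel and 2 labelled CuNZ@Gel. Per the labels' protocols, RNAiso Plus was used for extraction and the CORALL RNA-seq V2 kit for library preparation. The submitters' processing notes name GRCm39 and the tools STAR, Salmon, fastp and GATK. Not given in the sources used here are tool versions, roles and settings, the annotation, strand use and how values were normalized. The deposited files hold 1 log2 value per gene symbol, and from the values these are log2(x + 1) with x as scaled CPM, not divided by gene length. In each library 92.6% to 93.5% of values up to 1 scaled CPM were whole multiples of 1 step per library within 0.02 reads. This step gave the recovered reads.

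Genes that reached 1 scaled CPM in 2 or more libraries entered limma 3.58.1 (R 4.3.3) with a variance trend on the deposited log2 values, with the group as the only term and Benjamini-Hochberg adjustment over all tested genes. The threshold was 0.05. Errors are SD over 2 libraries. Libraries of a group differed by more than sampling noise, with a chi-square statistic per gene of 3.67 for Gel and 4.40 for CuNZ@Gel, and each was counted as a replicate. Alternatives were 3 other scalings, limma-voom on recovered reads, a pseudocount of 0.1, no filter or a minimum of 5 scaled CPM, a spline on transcript length and GC content subtracted per library, the replicate number as a block, and each library left out in turn. A crossed block, and the correction together with the block, were added after the data were seen. Lengths and GC content are those of the longest transcript in GENCODE M21, which is on another build, matched by symbol for 95.8% of tested genes. The procedure was also run on simulated data in which far fewer genes changed than were called here, so that run cannot vouch for these calls. The 10 genes and the lists were chosen with earlier results of these data known. All 10 genes are described, and from each list up to 4 genes with the smallest p past the threshold are named. A gene of the methyl donor list that this rule selects is not reported here. No list test was made.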

Additional observations from a re-analysis of the deposited data

How the results depend on the processing

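Dnmt1, Dnmt3a, Dnmt3l, Uhrf1 and Uhrf2 kept their direction and passed the test in all 15 alternatives, and Dnmt3b did so in the 14 where it was tested, since the filter at 5 scaled CPM removed it. Over these alternatives the log2 change was 0.34 to 0.70 for Dnmt1, -0.80 to -0.24 for Dnmt3a, -1.41 to -0.59 for Dnmt3b, 2.48 to 3.86 for Dnmt3l, -0.59 to -0.37 for Uhrf1 and 0.86 to 1.10 for Uhrf2. After the correction for transcript length and GC content, with or without the replicate block, 3 of the genes were raised in place of 5, Mbd3 (-0.101) and Tet2 (0.0921) no longer passed, and Tet3 turned to -0.0807. The fits that left out 1 library gave Tet3 changes of 0.24 to 0.40, of which that without Gel replicate 1 did not pass. In these 4 fits, which are among the 15, a group had 1 library, assumed to vary like the other group. The same-numbered libraries deviated from their group means with a correlation of -0.116, and 2 pairs cannot show that the numbers pair the samples. The replicate block gave 7489 calls in place of 7770 and changed no call of the 9 genes, and the crossed block gave 8370. Depth limits Dnmt3b, Tet1 and the Gel level of Dnmt3l, which rest on at most 57 reads per group. With no filter on low values Dnmt3b was near the threshold (limma, adjusted p = 0.0423). Dnmt3l passed the filter of the main fit only through CuNZ@Gel and Dnmt3b mainly through Gel. Their calls over the alternatives are thus a description.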
